A study of Mus musculus with 6 samples.

Results

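Pharyngeal pouch endoderm was examined in single-cell RNA counts from the cardiogenic region of wild type C57BL/6 mouse embryos at E10.5, a stage of midgestation. A cell was counted as pouch endoderm when it held at least 3 unique molecular identifiers (UMIs, each marking 1 captured RNA molecule) of Epcam, at least 4 of Pax1 and Pax9 together, none of Trp63 and fewer than 2 of Nkx2-1. Of 53362 barcodes, 35962 passed a filter of at least 2500 detected genes and at most 10% mitochondrial UMIs, and 1357 of these met the rule. They made up 3.77% of passing barcodes, with an exact binomial 95% interval from 3.58% to 3.98%. The labels describe 6 samples, 3 from females that received vehicle before mating and 3 from hyperglycemic females that received streptozotocin, a drug toxic to insulin-producing cells; males of both crosses were normoglycemic. The barcodes carry library numbers from 1 to 6 that no file used here ties to a sample, so streptozotocin and vehicle were not compared and the 6 libraries are described without a group.

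The pharyngeal pouches are paired outpocketings of the foregut endoderm that meet the ectoderm between the pharyngeal arches. Pouch endoderm releases FGF, hedgehog, endothelin and retinoid signals that are known to act on arch neural crest and heart progenitors. Its caudal members later form the thymus, the parathyroid glands and the ultimobranchial bodies. Epcam encodes an epithelial adhesion molecule, Pax1 and Pax9 encode paired-box factors of pouch endoderm, and Nkx2-1 marks the thyroid and lung fields. Trp63 is known from stratifying ectoderm, but 646 cells that met every other part of the rule also held it, as given below.

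The values that chose the cells are given as a description. In UMIs of a gene per 1000000 UMIs summed over cells (CPM), Epcam stood at 785 in pouch cells, 673 in the 5427 other cells with at least 3 Epcam UMIs and 92.0 in all 34605 other passing barcodes. Pax1 stood at 174, 27.0 and 4.54 CPM in the same order, and Pax9 at 173, 26.2 and 5.33. UMIs of both Pax genes were found in 957 of the 1357 cells (70.5%), of Pax1 alone in 117 and of Pax9 alone in 283. Among pouch genes outside the rule, Tbx1, Ripply3, Nkx2-6 and Prdm1 had higher levels than in the other Epcam cells and 9 of 13 compared were not called, as given below. Just inside the limit, 95 cells with 4 Pax UMIs held 69.3 CPM of Tbx1, 73.8 of Vgll2, 67.7 of Aldh1a1, 69.3 of Nkx2-6, 12.18 of Tfap2a, 10.66 of Fgf3 and 17.9 of Foxa2. Just outside it, 116 cells with 3 Pax UMIs held 79.7, 71.1, 45.99, 52.6, 6.87, 10.45 and 20.3 CPM of these genes in the same order. At 4 Pax UMIs, Fgf3 was below its level of 45.8 CPM in all pouch cells and Foxa2 above its 4.26 CPM.

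The libraries gave from 199 to 275 pouch cells each, or 3.09% to 4.74% of passing barcodes and 18.1% to 22.9% of Epcam cells. Median depth was 35296 UMIs in pouch cells, 26957 in the other Epcam cells and 32680 in all other passing barcodes. Of the pouch cells, 126 carried a barcode sequence that also occurred in another library, and none of those copies was a pouch cell. Blood, heart muscle or mesenchyme genes were high in 127 pouch cells, whose median depth was 63206 UMIs against 33651 in the rest. The limits were over 1000 CPM of the blood or heart muscle list, or at least 10 UMIs summed over 5 mesenchyme genes. The mesenchyme limit, met by 91 of these cells, was not scaled to depth. Deeper cells meet it more easily, so the gap in depth was partly built into the definition. A doublet score removed 115 of the 1357 cells at the expected rate, including 70.9% of those 127. CPM intervals below are exact Poisson 95% intervals, intervals of ratios are conditional binomial, and shares of cells are exact binomial (Clopper-Pearson). All cover counting error only, and no test was made over cells of 1 pooled matrix.

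Against the other Epcam cells, the highest ratios among called genes were those of Aldh1a1, which encodes a retinaldehyde dehydrogenase and was concentrated in a minority of pouch cells, and of the ligand gene Fgf3. The secreted Frizzled-related factor Sfrp2, the TEAD cofactor Vgll2, the adaptor Irs4 and the endothelin ligand Edn1 were also higher. A gene was called higher or lower when the CPM ratio was at least 2, the higher level at least 20 CPM and the direction the same in all 6 libraries. By that rule, 66 of 7042 genes (0.937%) were higher and 138 (1.96%) lower in pouch cells. The 66 include Pax1 and Pax9, and the 138 include Trp63 and Nkx2-1, which the rule fixed. The median ratio over all 7042 genes was 0.98. A call already asks for the same direction in every library, so ranges said below not to overlap are a description and no further support. The share of all 7042 genes with such ranges is not given here.

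**Figure D1:**
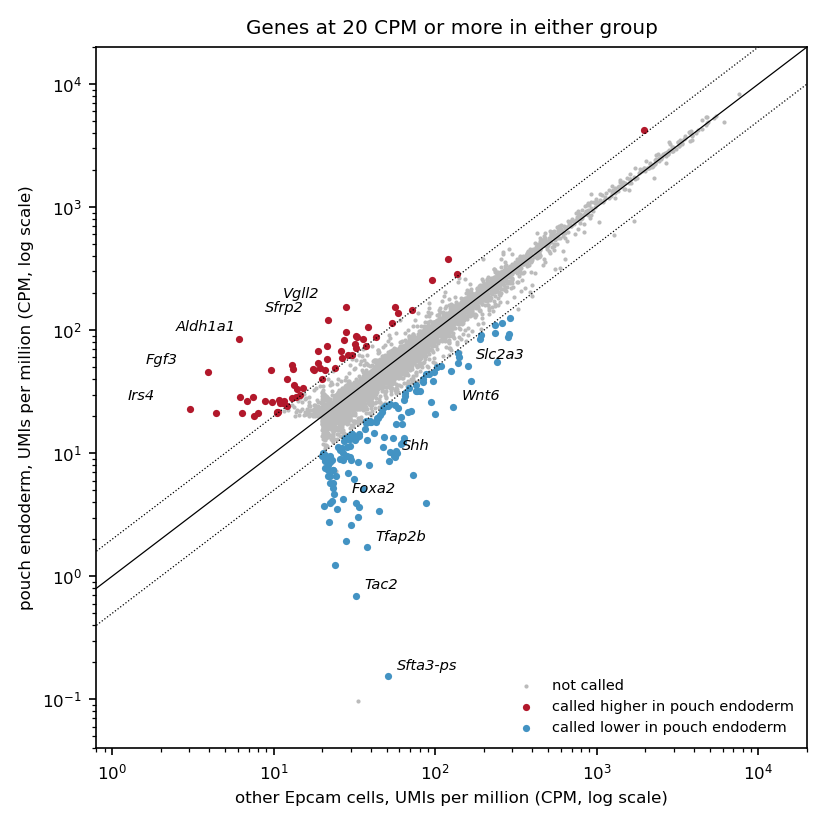
Each point is a gene with at least 20 CPM in pouch endoderm (vertical axis) or in other Epcam cells (horizontal axis), both on log scales and summed over 6 libraries, without the 5 genes of the rule. Red points are called higher and blue points lower in pouch endoderm, dotted lines mark a ratio of 2 in either direction, and Aldh1a1 and Fgf3 lie farthest above the line of equal levels while Sfta3-ps lies farthest below it among called genes.

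Aldh1a1 (mm10 chromosome 19, 20492715 to 20643465, plus strand) ranged from 40.6 to 188 CPM over the libraries with a median of 70.6, and from 2.74 to 13.2 CPM in other Epcam cells. The groups did not overlap, although pouch cells of library 3 held more than those of any other library. The summed levels were 84.9 CPM (82.4 to 87.5) and 6.07 CPM, a ratio of 13.98 (13.06 to 14.99). With the rule at 8 or more Pax UMIs, which moved cells with 4 to 7 into the other Epcam cells, the ratio was 7.77. A minority of pouch cells held most of these UMIs, since the 308 cells (22.7%) with at least 2 Hoxb1 UMIs carried 82.6% of them. Among cells with fewer than 2 Hoxb1 UMIs in both groups, Aldh1a1 ranged from 7.10 to 41.2 CPM in pouch cells against 1.59 to 7.17 CPM. It was higher in all 6 libraries there, but the ranges overlapped and the summed level of 19.6 CPM was under the minimum for a call.

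Fgf3 (chromosome 7, 144838083 to 144844436, plus strand) was nearly level across the libraries, at 44.0 to 48.0 CPM in pouch cells with a median of 45.7. In other Epcam cells it ranged from 2.71 to 6.53 CPM. All pouch values lay above all others, and the ratio was 11.7 (10.7 to 12.7). After thinning every cell to 10000 UMIs, an Fgf3 UMI was present in 319 of 1348 pouch cells (23.7%) and in 2.73% of 5246 other Epcam cells. Endothelial cells, which should lack the gene, showed it in 0.536% of 1864. Without thinning the shares were 35.7%, 5.68% and 1.76%, at median depths of 35296, 26957 and 40455 UMIs. Some genes named below were more common in thinned endothelial cells. Edn1 was seen in 20.3% of them against 38.0% of pouch cells, Ripply3 in 14.5% against 29.8% and Tbx1 in 10.7% against 40.1%.

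Vgll2 (chromosome 10, 52022502 to 52028471, plus strand) ranged from 135 to 171 CPM in pouch cells, with a median of 160, and from 21.1 to 38.9 CPM in other Epcam cells. It had a ratio of 5.57 (5.37 to 5.78). In thinned cells it was seen in 57.5% of pouch cells, 10.503% of other Epcam cells and 0 of 1864 endothelial cells, where a count of 0 (limit of 3 cells of the total) allows a share of up to 0.161%. Without thinning the shares were 73.0%, 15.4% and 0.160%. Sfrp2, which encodes a Wnt-binding secreted protein, ranged from 93.0 to 173 CPM with a median of 111, and stood at 21.6 CPM in other Epcam cells, a ratio of 5.59. Irs4, an adaptor of insulin-type receptors encoded on chromosome X, ranged from 16.5 to 40.2 CPM against 2.06 to 4.51, a ratio of 7.65. None of these ranges overlapped.

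Several of the other leading genes have a neighbour or copy that limits their reading. AI646519 (47.8 against 9.63 CPM) is an antisense transcript that overlaps the start of Pax1 by 868 bp on chromosome 2. Strand-aware counting is not stated in the sources used here, and whether any UMIs within that stretch were assigned to the wrong gene was not tested. Slc25a21 (154 against 56.4 CPM) likewise overlaps Pax9 by 188 bp and was singled out after its values were seen. Halr1, a long noncoding RNA gene beside the HoxA cluster, stood at 52.0 against 13.0 CPM. The remaining named genes were the sulfotransferase gene Hs3st6, Sycp2l, the tight junction gene Cldn10, the kinase gene Prkcb and the epithelial surface gene Plet1, with ratios from 3.55 to 4.80.

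**Figure D2:**
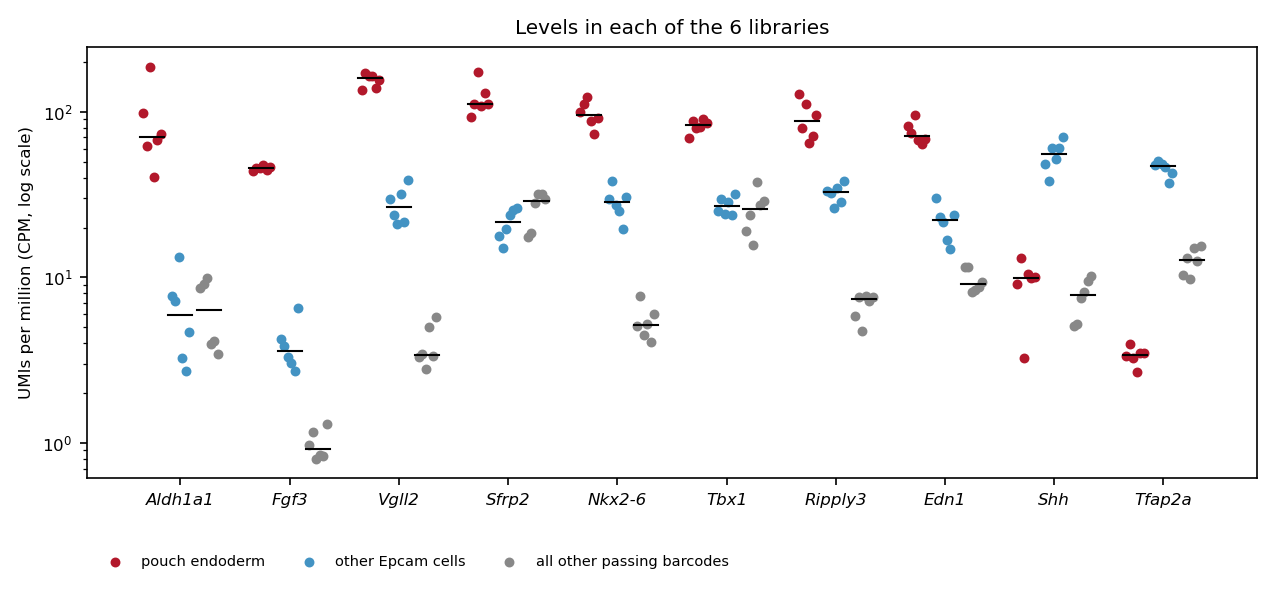
Each point is 1 of 6 libraries, with CPM on a log scale for 10 genes in pouch endoderm (red), other Epcam cells (blue) and all other passing barcodes (grey), and black bars mark medians. Pouch values of the first 8 genes lie above those of the other Epcam cells in every library, and those of Shh and Tfap2a lie below.

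Transcription factor genes of the pouches were the first list examined. Of 16 genes, 13 were abundant enough to compare, 4 were called higher (Nkx2-6, Tbx1, Ripply3 and Prdm1) and none lower, with a median ratio of 1.59. Over all 7042 genes 0.937% were higher and 1.96% lower, and the counts of this and the later lists stand beside those shares. Tbx1, a T-box gene needed for pouch outgrowth, ranged from 69.5 to 90.8 CPM in pouch cells with a median of 83.4, and from 23.9 to 32.1 CPM in other Epcam cells. Its ratio was 3.05 (2.92 to 3.18). Ripply3, which encodes a partner of T-box proteins, ranged from 64.6 to 127 CPM against 26.3 to 38.3 CPM. Nkx2-6, a homeobox gene of pharyngeal endoderm, ranged from 73.4 to 123 CPM against 19.7 to 38.4, and the repressor gene Prdm1 from 47.1 to 85.2 against 20.9 to 32.3. No library's pouch value fell inside the other group's range for any of these 4 called genes, given as a description. Cells with at least 2 Hoxb1 UMIs, described below, held 74.2% of the Ripply3 UMIs of pouch cells. Among cells under that limit in both groups, Ripply3 ranged from 26.3 to 33.8 CPM in pouch cells against 15.2 to 23.6 CPM, a ratio of 1.46 that was not called. Tbx1 (2.32), Nkx2-6 (3.54) and Prdm1 (2.31) were still called higher there. Among cells that met the limit in both groups, all 4 genes were called higher, with ratios from 2.22 for Prdm1 to 3.78 for Tbx1. Eya1, a transcriptional coactivator gene of pouch and placode development, reached 161 against 127 CPM, short of the ratio asked.

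In the FGF list, 10 of 15 genes were compared, 4 were called higher (the ligand genes Fgf3 and Fgf9, Spry1 and Etv4) and none lower, with a median ratio of 1.75. Spry1, a feedback inhibitor, ranged from 86.8 to 124 CPM in pouch cells with a median of 108, against 29.7 to 49.9 CPM. The other feedback genes compared, Spry2 (61.5 against 35.0 CPM) and Dusp6 (39.1 against 27.7), were not called. Fgf9 stood at 29.5 against 14.6 CPM and the target gene Etv4 at 21.1 CPM with a ratio of 2.01, both close to the limit. Fgf8, the ligand known for its part in arch and outflow tract growth, ranged from 121 to 161 CPM against 66.1 to 103, a ratio of 1.75 that was not called. Fgf15 lay under the 20 CPM minimum at 13.7 against 1.05 CPM, and its libraries ranged from 11.04 to 16.2 against 0.438 to 2.20. The receptor gene Fgfr2 was at 82.0 against 155 CPM.

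In the retinoic acid list, 9 of 18 genes were compared, Aldh1a1 and Cyp26b1 were called higher and none lower. Cyp26b1, which encodes a retinoic acid hydroxylase, stood at 24.04 against 12.02 CPM, at the ratio limit. Aldh1a2, the main retinaldehyde dehydrogenase of trunk mesoderm, was low in pouch cells, at 2.07 CPM against 7.41 in other Epcam cells and 19.8 in all other passing barcodes. Crabp2, a retinoic acid binding protein gene, stood at 428 against 264 CPM. Aldh1a7, a close copy of Aldh1a1, was also among the leading genes. It lies 49488 bp from Aldh1a1 and ranged from 25.7 to 32.8 CPM against 5.15 to 7.26, a ratio of 4.65, but UMIs of copies so alike could be assigned to either.

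The pair is shown because both genes had higher levels in pouch cells and the RefSeq sequences before their starts are alike. Of 2 RefSeq starts listed for Aldh1a1, the second matched Aldh1a7 at 94 of the last 100 bases before the start, and the first at 30. The windows are 250 bases from build GRCm38.p6, at chr19:20601718-20601967 on the plus strand and chr19:20727557-20727806 on the minus strand. Capitals mark the longest run identical in both at the same distance from the start, 65 bases. That run holds the octamer ATGCAAAT, which was searched on both strands and occurs in 1.60% of 32851 windows of this length. These counts do not show which Aldh1a1 start was used.
Aldh1a1: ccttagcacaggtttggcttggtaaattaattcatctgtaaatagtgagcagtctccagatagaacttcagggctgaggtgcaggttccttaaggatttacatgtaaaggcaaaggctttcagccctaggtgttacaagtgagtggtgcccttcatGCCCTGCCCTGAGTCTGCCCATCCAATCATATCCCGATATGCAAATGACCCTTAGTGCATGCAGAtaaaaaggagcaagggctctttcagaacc
Aldh1a7: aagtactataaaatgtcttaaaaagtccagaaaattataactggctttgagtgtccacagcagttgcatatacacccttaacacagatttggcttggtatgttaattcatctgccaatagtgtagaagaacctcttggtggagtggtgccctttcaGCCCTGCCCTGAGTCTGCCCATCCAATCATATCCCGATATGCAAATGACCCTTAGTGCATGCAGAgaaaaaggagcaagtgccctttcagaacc

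Among cues that pouch endoderm sends to arch tissue, 16 of 18 genes were compared, Fgf3 and Edn1 were called higher, and Shh and Pdgfa lower. Edn1, the endothelin ligand that patterns arch neural crest, ranged from 64.2 to 96.0 CPM in pouch cells with a median of 71.6, and from 14.9 to 30.4 CPM in other Epcam cells. Shh, the hedgehog ligand of foregut endoderm, ranged from 3.26 to 13.2 CPM against 38.3 to 70.5, a level 5.79 times lower (5.29 to 6.35). The rule placed all Epcam cells with Trp63, or over its limit on the thyroid and lung marker, in the other group. Shh reached the minimum level for a call only in that group, and how far the rule set its difference was not tested. Pdgfa stood at 127 against 290 CPM. The ranges of Edn1 and Shh did not overlap between the groups. In the hedgehog list, 7 of 13 genes were compared and Shh and the co-receptor gene Gas1 (65.2 against 139 CPM) were lower. Ptch1, a receptor and target gene of the pathway, stood at 142 against 127 CPM.

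The Wnt list had 9 of 18 genes compared, with Sfrp2 higher and the ligand genes Wnt6 and Wnt4 lower. Wnt6 stood at 23.9 against 130 CPM and Wnt4 at 11.9 against 61.7. Wnt6 is also on the ectoderm marker list, and the rule placed all Epcam cells with Trp63 in the other group. Its lower level was therefore partly fixed in advance. Wnt4 reached the 20 CPM minimum only in the other group, and how far the rule set its difference was not tested. No gene was called among 11 compared of the BMP list, where Bmp4 was at 37.8 against 72.2 CPM, or among 5 compared of the Notch list. With 0.937% of all genes higher and 1.96% lower, lists of this size are likely to hold no called gene. Of 17 epithelial structure genes compared, the keratin genes Krt7 and Krt19 were lower and 15 were not called. Cdh1, the epithelial cadherin gene, was at 48.2 against 52.2 CPM.

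**Figure D3:**
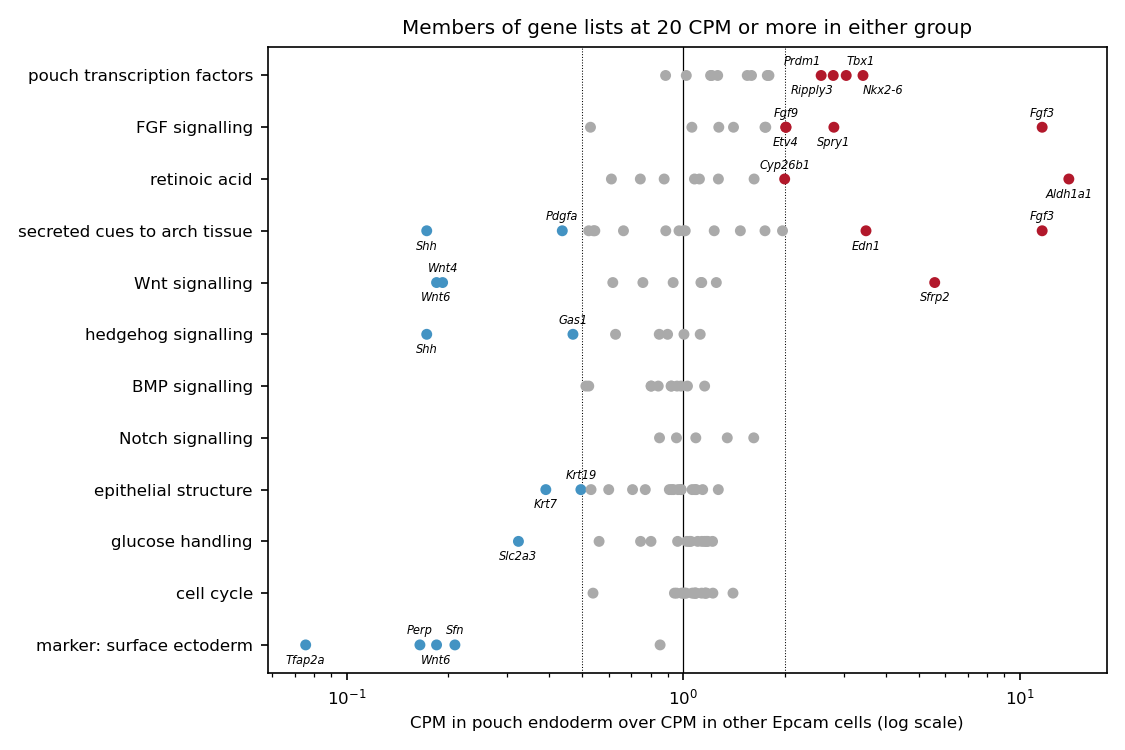
Each point is a gene of the list named on the left, placed by its CPM in pouch endoderm over that in other Epcam cells on a log scale, with dotted lines at ratios of 0.5 and 2. Red and blue points are called higher and lower and are named, grey points are not called, and the 5 genes of the rule are left out.

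Some genes of ectoderm and of other endoderm were among those called lower. The rule placed all Epcam cells with Trp63 or at least 2 Nkx2-1 UMIs in the other group. Lower levels of ectoderm, thyroid and lung genes in pouch cells were therefore partly fixed in advance. Sfta3-ps had the lowest ratio among called genes, at 0.155 against 51.2 CPM, but lies 2531 bp from Nkx2-1, which the rule limits. The liver gene Afp was lower still, at 0.0969 against 33.5 CPM, but was not called, as it had no UMI in either group in library 1. The neuropeptide gene Tac2 (0.698 against 32.3 CPM), the AP-2 factor genes Tfap2b (1.73 against 37.8) and Tfap2a (3.39 against 44.98), Foxi2, Kctd8, the neurogenic gene Neurog2, Galntl6 and Ahnak were also among the 10 lowest named. The Tfap2b level was 0.577 CPM, and its ratio 0.0139, with Epcam cells rich in other types' markers left out, and the ratio was 0.0152 with doublets removed. Removing doublets gave ratios of 0.0132 for Tac2 and 0.0583 for Galntl6, also over 1.5 times from their values. Tfap2a ranged from 2.70 to 3.97 CPM in pouch cells and from 37.3 to 50.8 in other Epcam cells, with no overlap. Of the 10 ectoderm markers, 6 were compared and 5 were lower, including Trp63 itself. Without Trp63, which the rule fixed at 0, the list summed to 142 to 162 CPM over the libraries in pouch cells against 333 to 496 CPM, and Krt14 had no UMI in pouch cells. Foxa2, a forkhead gene of ventral foregut, stood at 4.26 against 27.1 CPM, and was 6.35 times lower (5.54 to 7.30). Of the 12 foregut genes, 5 were compared, Foxa2 and Gata6 were lower and none was higher, while Sox2 was at 167 against 91.5 CPM.

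The other Epcam cells were divided into sets, and pouch cells were compared with each for some of the genes called higher. Of the genes called lower, only Tfap2a and Neurog2 are given here, for the remaining set. The sets were 599 cells with at least 2 Nkx2-1 UMIs and 2861 of the rest with Trp63. Of those left, 255 had at least 2 Foxa2 UMIs and 1712 were remaining. Aldh1a1 was higher in pouch cells than in each set, with 84.9 CPM against 2.79, 4.80, 10.2 and 8.92 in that order. Fgf3 was also higher than in each, at 45.8 CPM against 0.756, 4.92, 1.42 and 3.61. Tbx1 was called higher against all 4 sets and Ripply3 against all but the Foxa2 set, where it stood at 55.9 CPM. The remaining set was close to pouch cells in Eya1 (171 against 161 CPM) and Fgf8 (116 against 137), but held 44.6 CPM of Tfap2a and 90.8 of Neurog2, against 3.39 and 2.60.

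Of the 2861 Trp63 cells, 646 met every other part of the rule, so the limit on Trp63 decided their place. They held 126 CPM of Vgll2 and 61.8 of Nkx2-6, against 155 and 96.3 in pouch cells. Their Tfap2a level was 4.36 CPM, near that of pouch cells, but Aldh1a1 was at 10.9 and Fgf3 at 14.5 CPM. Exactly 1 Trp63 UMI was found in 262 of them. With no limit on Trp63, an alternative chosen after seeing the data, 2003 cells entered, and the ratio to other Epcam cells was 14.6 for Vgll2, 17.6 for Fgf3, 19.7 for AI646519, 9.39 for Sycp2l and 7.96 for Cldn10.

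Against all other passing barcodes, 287 of 7044 genes (4.07%) were higher and 369 (5.24%) lower in pouch cells. The named higher genes were Irs4, Fgf3, Vgll2, AI646519, Sycp2l, Plet1, Ctxn3, Halr1, Nkx2-6 and Hs3st6, with ratios from 52.0 for Irs4 to 17.0 for Hs3st6. The order depends on the Trp63 limit. Without it, the ratio was 106 for Vgll2, 85.3 for AI646519 and 66.4 for Sycp2l. Fgf3 ranged from 0.802 to 1.30 CPM and Vgll2 from 2.78 to 5.76 CPM in these barcodes, far below the pouch ranges given above. Of 17 epithelial structure genes compared, 13 were higher and none lower, with a median ratio of 5.20 against 1.04 over all 7044. The rule asked for Epcam, so this outcome was largely fixed by the choice of cells. Against other Epcam cells, none of this list was higher and 2 were lower. Of 13 pouch factor genes, 9 were higher and none lower.

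The named lower genes included markers of blood, heart and vessels, namely the platelet factor gene Pf4, the hemoglobin genes Hbb-bt, Hbb-y, Hbb-bh1, Hba-a1, Hba-a2 and Hba-x, the heart field gene Hand1 and the endothelial gene Emcn. Erythroid genes summed to 96.9 to 4342 CPM over the libraries in pouch cells and to 16260 to 71106 CPM in the other barcodes. The median per cell was nearly the same, at 97.2 CPM in pouch cells and 98.2 in the other barcodes, so the sums differ through cells with high levels. Of the erythroid UMIs in pouch cells, 94.2% lay in cells above 1000 CPM of that list. Hbb-y stood at 765 against 13829 CPM, a ratio of 0.0553 that was 0.00334 with Epcam cells rich in other types' markers left out, an alternative chosen after seeing the data. Leaving out library 5 moved Hbb-bt, Hba-a1, Hba-a2, Hba-x and Hbb-bh1 by over 1.5 times, Hba-x to 0.0352, and leaving out library 1 moved Emcn to 0.0264. With doublets removed the ratio was 0.0317 for Pf4, against 0.00555 before, and 0.0228 for Hand1. Cardiomyocyte genes summed to 221 to 1488 CPM against 4113 to 7047, and 92.5% of their pouch UMIs lay in cells above 1000 CPM. Their median per cell was 52.2 CPM in pouch cells and 72.4 in the other barcodes. The hepatocyte genes Alb and Hnf4a and the myeloid genes C1qa and C1qc had no UMI in pouch cells.

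Pouch cells differed among themselves along the axial genes. Hox genes are switched on in order from head to tail, and Otx2 marks the most rostral endoderm. Cells with at least 2 Hoxa3 UMIs and no Otx2 made up 315 of 1357 (23.2%, 20.99% to 25.6%), from 17.1% of library 1 to 28.6% of library 2. Only 25 cells had at least 2 Otx2 UMIs and no Hoxa3. The Hoxa3 share depends on depth and was 3.64% in thinned cells. A finer division, made after these values were seen, gave 308 cells with at least 2 Hoxb1 UMIs, 161 with at least 2 of Hoxa3 and none of Hoxb1, 39 with Otx2 and neither Hox gene, and 603 with no UMI of the 3 genes. Their median depths were 36529, 40968, 29934 and 32522 UMIs. The other 246 pouch cells (18.1%) fell in none of these sets and are not described further.

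Aldh1a1, Ripply3, Tbx1 and Prdm1 had higher levels in the Hoxb1 cells, which made up 22.7% of pouch cells and held 82.6%, 74.2%, 49.1% and 48.0% of the pouch UMIs of these genes. Aldh1a1 stood at 286 CPM (276 to 295) there and 10.0 CPM in cells with no axial UMI. In Hoxb1 cells the libraries ranged from 137 to 554 CPM, against 7.10 to 41.2 CPM in all other pouch cells of the same libraries. Ripply3 stood at 272 against 21.8 CPM, Tbx1 at 166 against 39.6 and Prdm1 at 131 against 49.9, for Hoxb1 cells against cells with no axial UMI. Aldh1a7 followed at 71.1 against 8.33 CPM, the retinol dehydrogenase gene Rdh10 at 62.9 against 25.9 and the GATA factor gene Gata3 at 67.2 against 22.4. By the call rule, 94 of 6857 genes (1.37%) were higher in Hoxb1 cells than in other pouch cells, led by the Hox genes Hoxb5, Hoxc4 and Hoxa5. Genes that chose the cells or define the set, and unnamed gene models, are not among the genes called in this and the following sets. The arginase gene Arg1 stood at 304 against 23.5 CPM outside these cells. Of the 228 cells with at least 5 Aldh1a1 UMIs, which held 153 CPM of Hoxb1, 101 of 6884 genes (1.47%) were higher than in other pouch cells, led by the same 3 Hox genes.

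The cells with no axial UMI had the opposite pattern. Each set lies within the other pouch cells that the other was compared with, so this is not separate from the pattern above. Lack of a UMI also depends on depth, and levels for these sets in thinned cells are not given here. Fgf3 stood at 68.9 CPM in cells with no axial UMI and 14.4 in Hoxb1 cells. Its libraries ranged from 59.96 to 82.1 CPM in cells with no axial UMI against 20.9 to 33.6 in the other pouch cells. Sox2, a factor gene of foregut epithelium, stood at 228 against 97.6 CPM, Nkx2-3 at 128 against 6.70, Vgll2 at 205 against 75.6 and Fgf15 at 23.4 against 2.29, for cells with no axial UMI against Hoxb1 cells. By the call rule, 39 of 6757 genes (0.577%) were higher in these cells than in other pouch cells, led by Rarres1 at 135 against 20.03 CPM. Pax1 and Pax9 also went opposite ways. Pax1 stood at 241 CPM in cells with no axial UMI and 28.9 in Hoxb1 cells, while Pax9 stood at 115 and 248, given as a description since both chose the cells.

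**Figure D4:**
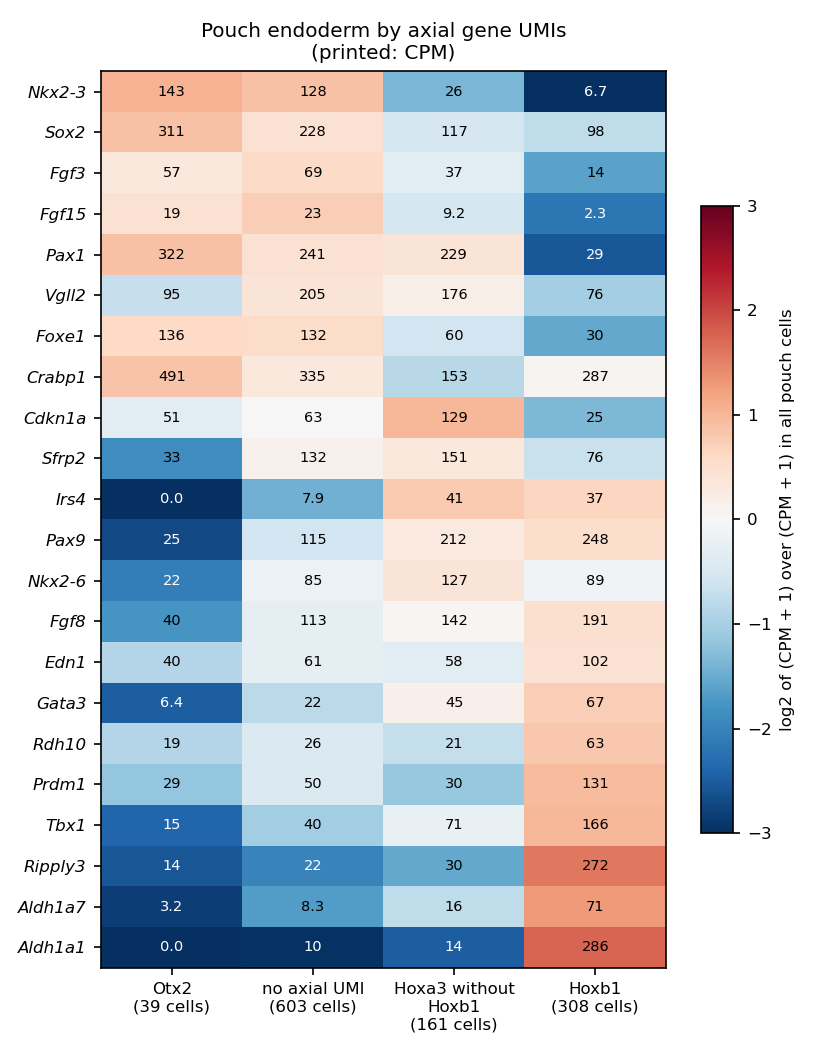
Columns are sets of pouch cells by their UMIs of Otx2, Hoxa3 and Hoxb1 and rows are genes. The printed value is CPM, and the colour is log2 of CPM plus 1 over that in all pouch cells. Fgf3, Sox2, Nkx2-3 and Pax1 are low in the Hoxb1 column, and Aldh1a1, Ripply3, Tbx1 and Pax9 are high there.

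The 161 cells with Hoxa3 and no Hoxb1 combined values seen in the Hoxb1 cells and in the cells with no axial UMI. Their Pax1 and Pax9 levels were both high, at 229 and 212 CPM, and Irs4 stood at 40.5 CPM against 7.87 in cells with no axial UMI. Aldh1a1 (14.5 CPM) and Ripply3 (30.5 CPM) were near those of cells with no axial UMI. By the call rule, 10 of 6718 genes (0.149%) were higher than in other pouch cells, led by the doublesex-related gene Dmrt2 at 64.8 against 10.8 CPM and Cpne4 at 68.3 against 14.1. The cyclin-dependent kinase inhibitor gene Cdkn1a stood at 129 against 53.1 CPM.

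The 39 Otx2 cells had no UMI of Aldh1a1 and stood at 311 CPM of Sox2, 322 of Pax1 and 25.4 of Pax9. They came from all 6 libraries, with 1 cell in library 3 and 13 in library 4. In them 152 of 7003 genes (2.17%) were called higher, over the 2 libraries with at least 10 such cells. The antisense gene Otx2os1 and the homeobox gene Hmx2 led them. Otx2os1 is named for the strand opposite Otx2, the gene that defined the set, so its lead is no separate result. Blood, heart muscle or mesenchyme genes were high in 6 of the 39 cells (15.4%), against 127 of all 1357, and their part in this count was not tested.

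Genes of organ fates ranged from common to nearly undetected. Foxe1, a factor gene of the thyroid and palate, ranged from 61.2 to 109 CPM in pouch cells, against 80.6 to 130 in other Epcam cells. The parathyroid and thymus factor gene Gata3 ranged from 35.6 to 44.9 CPM against 28.2 to 45.3, and the thymic chemokine gene Ccl25 from 21.007 to 28.02 CPM against 26.5 to 30.6. The ranges of all 3 overlapped between the groups and none was called. In the thyroid and ultimobranchial list, 2 of 6 genes were compared and Pax8 was called lower. The rule placed all Epcam cells with at least 2 Nkx2-1 UMIs in the other group, so lower levels of thyroid genes were partly fixed in advance. With Epcam cells rich in other types' markers left out, Pax8 stood at 10.8 against 22.8 CPM. The thymus list had 2 of 6 genes compared and the parathyroid list 1 of 6, none called. Gcm2, the parathyroid regulator, had a UMI in 119 passing barcodes, of which 75 were pouch cells and 38 other Epcam cells, 33 of these with Trp63. Its level ranged from 0.946 to 6.65 CPM over the libraries in pouch cells, highest in library 3, and from 0.170 to 0.613 CPM in other Epcam cells. In thinned cells it was seen in 2.23% of pouch cells (1.51% to 3.16%), 0.191% of other Epcam cells and 0 of 1864 endothelial cells. The 75 Gcm2 cells held 40.5 CPM of Hoxa3, 80.8 of Dmrt2 and 292 of Cdkn1a, against 14.3 and 48.7 CPM of the last 2 genes in the remaining pouch cells. Of 6830 genes, 40 (0.586%) were higher in them by the call rule, counted over 4 libraries with at least 10 such cells. Pth, the parathyroid hormone gene, had no UMI in pouch cells, and Foxn1, the thymic epithelial regulator, stood at 0.213 CPM against 0.574 in other Epcam cells.

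Smaller sets, also chosen after values were seen, held other signals. A set of 188 cells with at least 5 Fgf3 UMIs also held 62.4 CPM of Fgf15, 54.8 of Fgf4 and 32.0 of Fgf18, against 4.30, 4.81 and 5.71 in the other pouch cells. In that set, 54 of 6766 genes (0.798%) were higher, the feedback gene Spry1 stood at 195 CPM, and Sfrp2 stood at 331 against 80.4 CPM. The 98 cells with at least 2 Shh UMIs held 333 CPM of Foxe1 against 70.6 elsewhere among pouch cells, and their share ran from 2.49% of library 3 to 8.73% of library 6. In them, 47 of 6836 genes (0.688%) were higher, over 5 libraries.

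Cyp26c1, which encodes a retinoic acid hydroxylase, marked 28 cells with at least 2 UMIs. They were unevenly spread, with 2, 1, 0, 8, 10 and 7 cells in libraries 1 to 6. They held 87.5 CPM of the related gene Cyp26a1 against 2.32 in other pouch cells. Library 5 alone held enough of them for the direction to be read, so the 146 of 6975 genes (2.09%) called higher in them rest on that library. Blood, heart muscle or mesenchyme genes were high in 6 of the 28 cells (21.4%), and their part in this count was not tested.

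**Figure D5:**
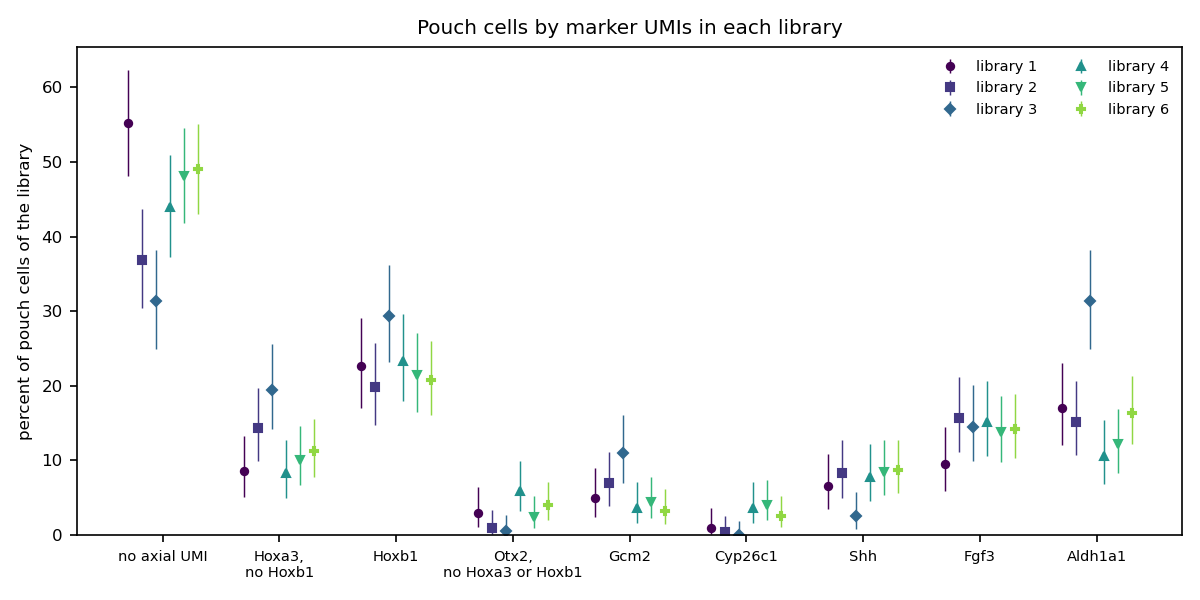
Points are the percentage of each library's pouch cells in 9 sets defined by UMIs of the genes named below, 1 symbol for each of 6 libraries, and bars are exact binomial 95% intervals. Library 3 is highest for Aldh1a1, Gcm2, Hoxb1 and Hoxa3 without Hoxb1, and lowest for cells with no axial UMI and for the Otx2, Cyp26c1 and Shh sets.

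Library 3 stood apart in several of these shares. Of its 201 pouch cells, 31.3% had at least 5 Aldh1a1 UMIs, against 10.6% to 17.1% in the other libraries. Its share of Hoxb1 cells, which held most Aldh1a1 UMIs, was 29.4%, against 19.8% to 23.4%. Its Gcm2 share was 10.9%, against 3.27% to 6.91%, and its share with no axial UMI was 31.3%, against 36.9% to 55.3%. Median depth in library 3 was 34596 UMIs, inside the range of 32201 to 37731 over the libraries.

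Genes of glucose uptake and use were listed because the study concerns maternal diabetes. Of 18 genes, 14 were compared with other Epcam cells, 1 was lower and none higher, with a median ratio of 1.05. Over all genes compared, 1.96% were lower and 0.937% higher, so so few calls in a list of this size are no result about the list. The glucose transporter gene Slc2a3 ranged from 43.9 to 61.5 CPM in pouch cells with a median of 51.4, and from 125 to 206 CPM in other Epcam cells, with no overlap and a level 3.09 times lower. Slc2a1, the other main transporter gene, stood at 76.7 against 137 CPM and was not called. Of 18 cell cycle genes, all compared, none was called, and the proliferation gene Mki67 was at 151 against 161 CPM. Cdkn1c, an inhibitor gene of the cycle, stood at 318 against 591 CPM in other Epcam cells.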

How the data were processed

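Droplet 3′ single-cell libraries (10x Genomics Chromium, version 3, per the labels' protocols) gave a matrix of UMI counts, in whole numbers, that the authors deposited for all 6 libraries together. Its file header names Cell Ranger 5.0.0. CASAVA 1.8, Seurat 4 and mm10 are named in the submitters' processing notes. The labels' descriptions name a chromatin assay, but titles, kit and values are of RNA.

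Counts were summed per library and group and scaled to CPM with Python 3.11.15, numpy 2.4.6 and scipy 1.17.1, and no library was dropped. Genes with duplicate symbols were represented by the row with most UMIs. A call needed at least 10 cells per library in both groups for its direction. The calling step was tested on simulated data. Gene positions came from GENCODE M21, promoters from RefSeq. Named genes were the 15 highest and 10 lowest ratios against other Epcam cells and 10 each way against all others, without the 5 rule genes, mitochondrial genes, unnamed gene models, Xist, Tsix and Y-linked genes (the X-linked Irs4 was kept, although the stated rule left out sex-linked genes); listed genes could be named, and a few are not reported here. Members and lists were chosen with earlier results of these data known. Alternatives varied the cell filter, the rule's limits, depth, doublets, shared barcodes, pooling and libraries. The planned test of streptozotocin against vehicle was not run.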

Additional observations from a re-analysis of the deposited data

How the results depend on the processing

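Over all alternatives that gave a value, the counts of genes called against all other passing barcodes stayed within 1.5 times. Asking for a ratio of at least 3 left 21 genes higher and 63 lower than in other Epcam cells. The share of Hoxa3 cells was 20.9% with at least 2 Pax UMIs, 27.0% with at least 8, 3.64% after thinning to 10000 UMIs and, in an alternative chosen after seeing the data, 19.6% with no limit on Trp63. Leaving out 1 library at a time gave 1082 to 1158 cells, 58 to 69 genes higher and 133 to 147 lower than in other Epcam cells, 278 to 298 higher and 365 to 388 lower than in all others, and a Hoxa3 share of 22.2% to 24.3%. Of 765 values of 45 named ratios, none reversed and 58 moved by over 1.5 times, 8 of them on leaving out a library: without library 3 the ratio of Sfta3-ps was 0.00139, and without library 5 that of Tfap2b was 0.0255. No paired analysis was possible because the library numbers of the barcodes are not tied to samples, so no replicate number of the labels could be used. Free RNA and depth limit shares of cells with a UMI.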
